A study of Homo sapiens and Mus musculus with 16 samples.

Results

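The genes of voltage-gated potassium, sodium and calcium channels were taken by their symbols (KCN, SCN and CACN series, pore-forming and accessory subunits, without antisense genes) from a table of 22286 human genes, which held 130 of them. Of these, 101 had a mean of at least 1 CPM (a gene's counts scaled to the total counts of its library) over the 4 neuron libraries, and 29 did not. The symbols also take inward rectifier (KCNJ), two-pore (KCNK) and calcium- or sodium-activated (KCNN, KCNT) potassium channels, whose pores are not opened by voltage in the strict sense. P-body-seq measured RNA in P-bodies, granules of RNA and protein that lie in the cytoplasm, and in a cytoplasmic fraction of the same cells. Cells expressing GFP fused to LSM14A, a P-body protein, were lysed and nuclei were spun out. A faster spin then gave a pellet, which was resuspended as the cytoplasmic fraction. GFP-positive particles were sorted from it, and part of it was sequenced unsorted. What is called cytoplasm below is therefore this pelleted fraction, P-bodies included, and not all RNA of the cytoplasm. Enrichment and depletion are relative to it. The comparison asked which channel mRNAs were over- or under-represented in P-bodies of neurons, and whether the same held in other human cells.

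Neurons at day 20 of differentiation and liver bud progenitors were both derived from UCLA4, a human embryonic stem cell line with GFP-LSM14A inserted at the AAVS1 locus, and their libraries were made from polyA RNA with the V4 ultra and Nextera XT kits. HEK293T, a human embryonic kidney line, carried GFP-LSM14A from a lentivirus, and its libraries were made from total RNA by the Snap seq protocol, so cell type and library kind cannot be told apart wherever HEK293T is compared with the other cells. All 3 cell types had 2 P-body and 2 cytoplasm libraries, 12 in all. Every group, cytoplasm included, carries the GFP-LSM14A transgene, and no unmodified cells were included. The labels do not say whether the 2 replicates came from separate cultures, so the p-values measure only the spread between these libraries, which may be technical.

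As background, voltage-gated channels open when the membrane potential changes. Sodium channels start the action potential, potassium channels end it and set the spacing of spikes, and calcium channels turn depolarisation into calcium entry, transmitter release and gene regulation. Each pore is built from a large pore-forming protein (or 4 smaller ones in potassium channels) with accessory subunits that set its trafficking and gating, and neurons express many members at once. P-bodies hold mRNAs that are largely kept out of translation, together with proteins of decapping and of translational repression.

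Library totals ran from 6368953 to 17972284 counts. Markers went with the neuron label: 10 pan-neuronal markers summed to 9960-9968 CPM in neuron P-bodies and 12264-12866 in neuron cytoplasm, against 273-295 in liver bud progenitors. Neural progenitor markers (8 genes) went the other way between the neuron fractions, with 3530-3716 CPM in P-bodies and 1544-1661 in cytoplasm, and their part in the channel results was not tested. In liver bud progenitors the 8 hepatic endoderm markers summed to 192-435 CPM and 5 pluripotency markers to 1018-1259 CPM, and ALB was at 0 in the cytoplasm. Glial markers (8 genes) summed to 68.8-79.3 CPM in neuron P-bodies and 96.6-121 CPM in neuron cytoplasm, where OLIG2 and SOX10 were at 0. Muscle markers (5 of 6 listed were in the table) summed to 15.0-19.5 CPM in neuron P-bodies and 12.5-13.3 CPM in cytoplasm, with TNNT2 at 0 in both. The 4 nuclear RNAs summed to 3200-3347 CPM in neuron P-bodies and 7120-7475 CPM in cytoplasm. Replicates were least alike in neuron P-bodies, where 30 of the 101 channel genes differed more than 2-fold between the 2 libraries, against 15 in neuron cytoplasm.

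Channel RNA was abundant in neurons. The 130 genes together made up 2471 and 2564 CPM in the neuron P-body libraries and 3359 and 3455 CPM in the neuron cytoplasm libraries, so the neuron fractions did not overlap. The same sum was 695 and 712 CPM in liver P-bodies, 956 and 976 CPM in liver cytoplasm, 315 and 319 CPM in HEK293T P-bodies, and 343 and 355 CPM in HEK293T cytoplasm. In bulk libraries, fewer cells of a type and less RNA per cell cannot be told apart.

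Between the cytoplasm of neurons and that of liver bud progenitors, 55 of the 101 genes were higher in neurons and 17 lower by edgeR's quasi-likelihood test (adjusted p under 0.05), 54.5% and 16.8%. Among all 14826 genes of at least 1 CPM in neurons, 28.6% were higher and 28.9% lower. The members were filtered on their level in neurons, which favours genes that are high there. SCN3A, a sodium channel pore of the developing brain, had 190 and 205 CPM against 2.20 and 2.95 CPM, a log2 difference of 6.49 ± 0.17 (SE, 2 libraries per group, adjusted p = 7.1e-14). Most calcium channel subunits were higher in neurons: all 8 alpha1 pores, all 3 alpha2delta, all 6 gamma and 3 of 4 beta subunits of at least 1 CPM. The exception, the beta subunit CACNB2, was lower, with 5.14 and 6.57 CPM against 20.6 and 15.4 CPM (log2 difference -1.37 ± 0.39, adjusted p = 0.0097). Among genes lower in neurons was KCNJ16, an inward rectifier subunit of epithelia (0.349 and 1.06 CPM against 74.4 and 65.8 CPM, log2 difference -6.39 ± 0.28, adjusted p = 2.7e-11).

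**Figure D1:**
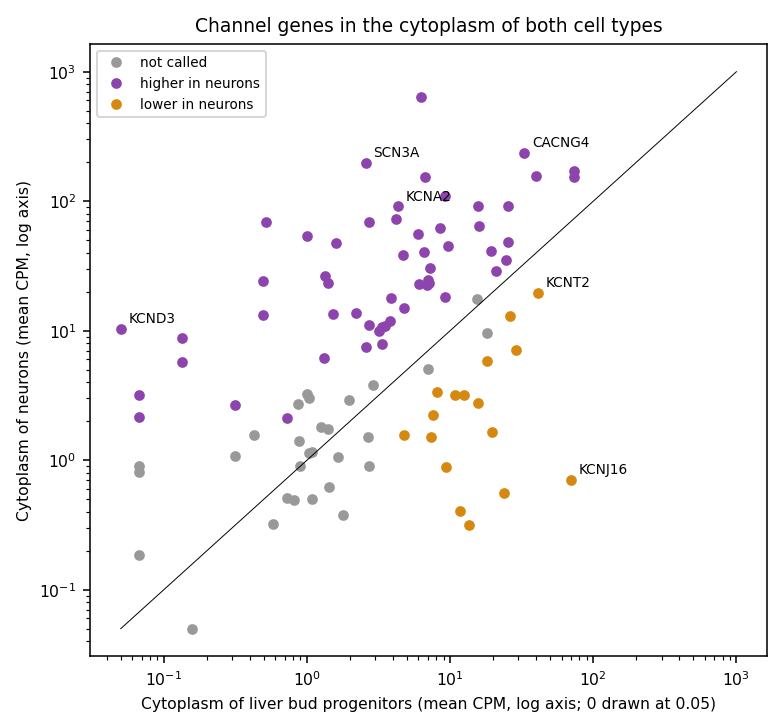
Mean CPM of the 101 channel genes in the cytoplasm of liver bud progenitors (horizontal, log axis) and of neurons (vertical, log axis), each point 1 gene, coloured by the edgeR call, with the line of equal level and values of 0 drawn at 0.05. Most points (55) are called higher in neurons, SCN3A and CACNG4 among them.

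Per kilobase of the longest annotated transcript, the abundant members in neurons included CACNG4 (53.4 CPM per kb), SCN3A (22.6), CACNA2D2 (22.1), SCN3B (18.2), CACNB1 (17.2), CACNB3 (14.2), CACNA1H (13.6), KCNA2 (12) and SCN8A (11.0). CACNG4 is a gamma subunit that also escorts AMPA-type glutamate receptors, CACNA2D2 and CACNB1 are accessory subunits of calcium channels, and SCN3B is an accessory subunit of sodium channels. CACNG4 stood at 65.7 CPM per kb in cytoplasm and 41.0 in P-bodies. Within other subfamilies the highest per kb were KCNIP2 (9.61), KCNK10 (7.68) and KCNN1 (5.41).

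In neurons, 30 of the 101 channel genes were depleted from P-bodies and 9 were enriched. This was 29.7% and 8.91% of members, against 21.0% depleted and 20.0% enriched among all genes of at least 1 CPM, and 14.1% and 14.6% among all 22093 genes tested. The median log2 change (P-body over cytoplasm) was -0.09 for the members and -0.10 for all genes of at least 1 CPM, and with scaling by library size alone these medians became 0.07 and 0.06, so neither has a stable sign. That scaling moved the median of all genes tested by 0.16 and the members called to 12 enriched and 20 depleted. Entry by the mean of both fractions also let in genes low in cytoplasm. Of the 85 channel genes of at least 1 CPM in neuron cytoplasm, 35.3% were depleted and 5.88% enriched. Their median was -0.34, and -0.17 with scaling by library size alone. That filter favours genes high in cytoplasm, and all genes were not counted under it. Of the 59 members with at least 5 CPM, 30 (50.8%) were depleted and 5 (8.47%) enriched, with a median of -0.62, whereas all genes of that level had 28.9% depleted, 23.4% enriched and a median of -0.21. Of the 42 members between 1 and 5 CPM, 4 were enriched and 0 depleted by edgeR. These 4 (KCNA10, KCNG4, KCNJ15 and KCNV2) passed the filter of 1 CPM only through P-bodies, where they are high, so their count supports nothing about low genes. Among all 4533 genes of that level 12.4% were enriched and 3.11% depleted. The median log2 change was 0.89 for the 42 members, 32 of them positive, and 0.22 for all genes of that level. The value of 0.89 includes members that passed the filter only through P-bodies.

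**Figure D2:**
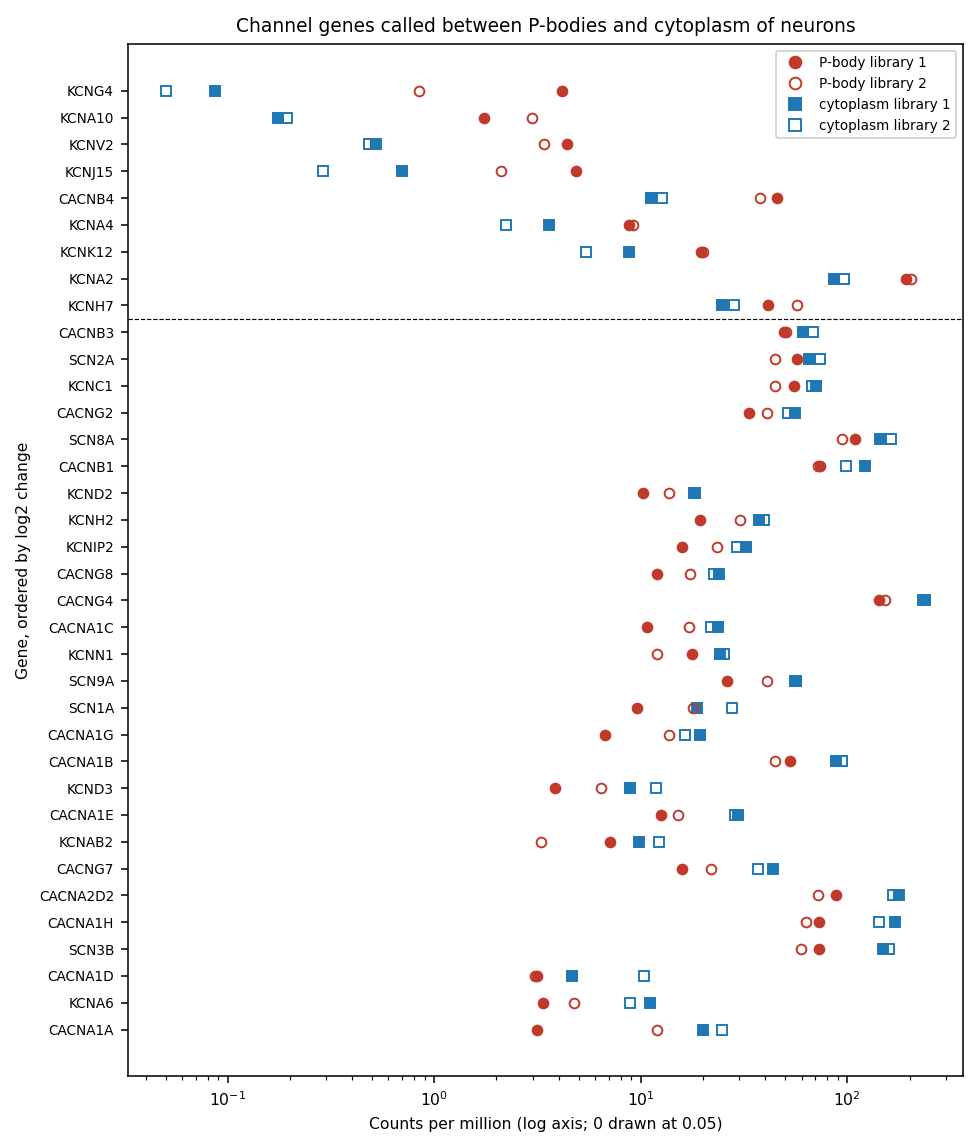
CPM of 36 channel genes called in neurons in each of the 4 libraries (log axis, 0 drawn at 0.05), P-body libraries as circles and cytoplasm libraries as squares, replicate 2 open. The 9 genes above the dashed line are P-body enriched and the 27 below it depleted, and the fractions of each gene do not overlap.

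The calls differ in how far they rest on single libraries. Without either neuron cytoplasm library, 16 (replicate 1 left out) or 17 (replicate 2 left out) members were depleted and 4 were enriched, and without P-body replicate 1 or 2 the enriched members numbered 19 or 15. Across 10 other settings, 14 of the 30 depleted genes and 2 of the 9 enriched genes, KCNA2 and CACNB4, kept their call every time.

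**Figure D3:**
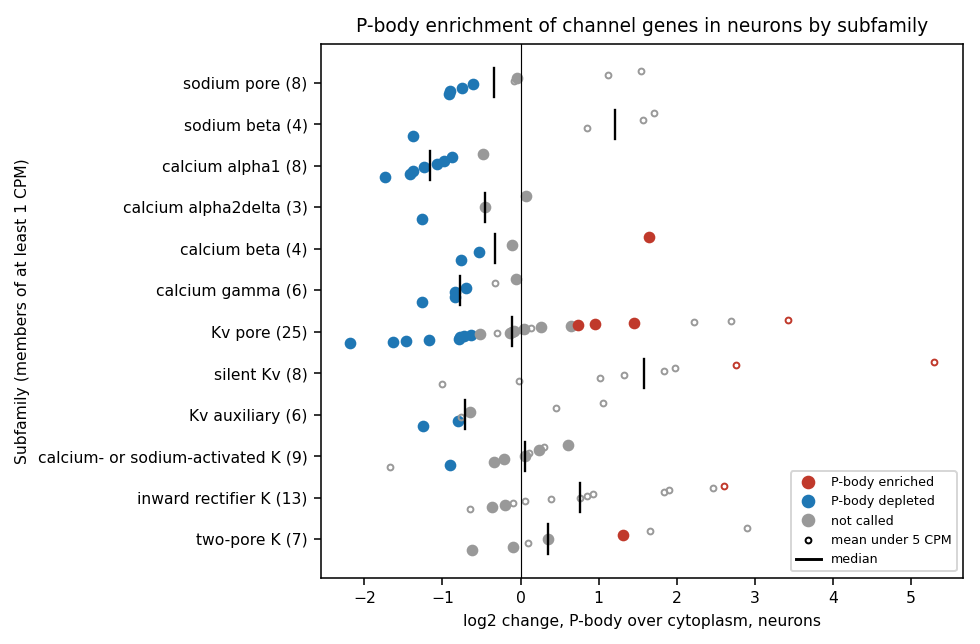
log2 change between P-bodies and cytoplasm of neurons for each of the 101 channel genes, by subfamily with the number of genes, coloured by call. Small open circles are genes with a mean under 5 CPM and black bars are medians; all 8 calcium alpha1 genes lie left of 0.

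Sodium channel pores were split. Of 8 pore genes measured, 4 were depleted (SCN1A, SCN2A, SCN8A and SCN9A), 0 were enriched by edgeR, and the median log2 change was -0.35. The depleted share was 50.0%. Among all genes of at least 1 CPM, 21.0% were depleted and 20.0% enriched. SCN8A, the main pore at the axon initial segment and nodes of mature neurons, had 109 and 94.5 CPM in P-bodies and 144 and 162 CPM in cytoplasm (log2 change -0.75 ± 0.12, adjusted p = 0.00027). SCN9A, best known from sensory neurons, had 26.2 and 41.0 CPM against 55.9 and 56.5 CPM (-0.91 ± 0.20, adjusted p = 0.0034), and SCN2A, the pore of early axons, had 57.1 and 44.7 CPM against 65.5 and 73.5 CPM (-0.61 ± 0.16, adjusted p = 0.01). SCN1A had 9.61 and 18.0 CPM in P-bodies and 18.7 and 27.7 CPM in cytoplasm, so its fractions barely separated (-0.91 ± 0.31, adjusted p = 0.041), and 6 of 10 other settings did not call it. SCN3A, the most abundant pore, was level between the fractions, with 227 and 200 CPM in P-bodies and 190 and 205 CPM in cytoplasm (-0.05 ± 0.10, adjusted p = 0.75). Exons of SCN1A and SCN9A overlap an antisense gene, SCN1A-AS1, by 1631 and 1589 bases, and whether counting used strand is not given in the sources used here. These pores are close relatives, and SCN3A and SCN2A overlap head to head on chromosome 2.

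Of the 4 sodium channel beta subunits, single-pass membrane proteins that set gating and adhesion, only SCN3B passed the test. It had 72.6 and 59.7 CPM in P-bodies and 149 and 159 CPM in cytoplasm, 2.61-fold lower in P-bodies (log2 change -1.38 ± 0.13, adjusted p = 3e-06). The other 3 were not called, with a subfamily median log2 change of 1.21.

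Calcium channel pores were depleted almost throughout. Of the 8 alpha1 genes, 7 were depleted, all 8 had negative log2 changes and the median was -1.15 (-0.99 with scaling by library size alone). The depleted share was 87.5%, against 21.0% of all genes of at least 1 CPM. CACNA1H, a T-type pore that opens at low voltage, had 72.8 and 62.8 CPM in P-bodies against 169 and 143 CPM in cytoplasm, 2.59-fold lower (log2 change -1.37 ± 0.14, adjusted p = 6.2e-06). CACNA1B, the N-type pore of presynaptic terminals, had 52.9 and 44.7 CPM against 88.3 and 94.5 CPM (-1.07 ± 0.14, adjusted p = 6.6e-05). CACNA1A, the P/Q-type presynaptic pore, had 3.13 and 11.9 CPM against 20.0 and 24.8 CPM (-1.73 ± 0.44, adjusted p = 0.0092); its P-body replicates were far apart but both below the cytoplasm. CACNA1E, the R-type pore, had 12.5 and 15.1 CPM against 29.5 and 28.6 CPM (-1.24 ± 0.22, adjusted p = 0.00097). The L-type pores CACNA1C (-0.87 ± 0.27, adjusted p = 0.026) and CACNA1D (-1.42 ± 0.49, adjusted p = 0.047) and the T-type CACNA1G (-0.98 ± 0.33, adjusted p = 0.044) passed more narrowly, and each lost its call in 4 to 7 of 10 other settings. The pore that was not called, CACNA1I, had 9.96 and 2.64 CPM against 8.45 and 7.25 CPM.

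Accessory calcium channel subunits were more mixed. The alpha2delta subunit CACNA2D2, which raises the surface density of the pore, was depleted: it had 88.3 and 71.9 CPM in P-bodies and 178 and 166 CPM in cytoplasm (log2 change -1.27 ± 0.13, adjusted p = 7.3e-06). CACNA2D1, an alpha2delta subunit that binds gabapentin, had 59.3 and 55.1 CPM against 46.6 and 50.5 CPM (0.07 ± 0.15, adjusted p = 0.74). Among the 4 beta subunits, cytoplasmic proteins that bring pores to the membrane, CACNB1 (-0.76 ± 0.14, adjusted p = 0.001) and CACNB3 (-0.53 ± 0.14, adjusted p = 0.012) were depleted while CACNB4 was enriched. CACNB4 had 45.6 and 37.6 CPM in P-bodies and 11.2 and 12.7 CPM in cytoplasm, 3.12-fold higher (1.64 ± 0.22, adjusted p = 7.1e-05). The beta subunits were thus 50.0% depleted and 25.0% enriched. Of 6 gamma subunits 4 (66.7%) were depleted and 0 enriched by edgeR. Among all genes of at least 1 CPM, 21.0% were depleted and 20.0% enriched. The gamma subunit CACNG4 had 142 and 153 CPM against 238 and 232 CPM (-0.84 ± 0.10, adjusted p = 2.2e-05). The other 3 depleted gamma subunits were CACNG2, CACNG7 and CACNG8.

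Pore subunits of voltage-gated potassium channels went both ways. Of 25 measured, 8 (32.0%) were depleted and 4 (16.0%) enriched, against 21.0% and 20.0% of all genes of at least 1 CPM. KCNQ3, a pore subunit of the M-current that restrains repetitive firing, had 17.1 and 19.8 CPM against 16.3 and 18.8 CPM (log2 change -0.09 ± 0.24, adjusted p = 0.81). KCNC1 (-0.64 ± 0.15, adjusted p = 0.0068), KCNH2 (-0.79 ± 0.22, adjusted p = 0.015), KCND2 (-0.77 ± 0.27, adjusted p = 0.048) and KCND3 (-1.17 ± 0.39, adjusted p = 0.04) were depleted, the last 2 losing the call in 6 of 10 other settings.

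KCNA2, a low-threshold delayed rectifier of axons, was the enriched member with the highest level: 192 and 203 CPM in P-bodies against 86.2 and 96.3 CPM in cytoplasm, 1.94-fold higher (log2 change 0.95 ± 0.10, adjusted p = 1.4e-05). Both P-body libraries lay above both cytoplasm libraries by a wide margin. KCNH7, an ether-a-go-go related pore, had 41.3 and 57.3 CPM against 24.7 and 28.2 CPM (0.73 ± 0.19, adjusted p = 0.012). KCNA4, which gives a fast inactivating current, had 8.80 and 9.19 CPM against 3.57 and 2.22 CPM (1.45 ± 0.45, adjusted p = 0.027). The fourth, KCNA10, was near the detection limit in cytoplasm, with 1.74 and 2.96 CPM against 0.174 and 0.193 CPM, and passed the filter of 1 CPM only through its P-body libraries. KCNA10 (chr1:110517217-110519175, minus strand) lies 662 bases downstream of KCNA2 (chr1:110519837-110631474, minus strand), and reads from the longer transcript cannot be told apart from its own here.

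The coding sequence of the potassium-selective filter is shown to compare relatives with opposite calls base by base. The windows below are 60 coding bases (20 codons, 5′ to 3′, MANE transcripts of GENCODE release 44 on hg38) around the filter, whose glycine, tyrosine or phenylalanine, and glycine codons are in capitals; they were chosen after the values were seen. KCNA2, KCNA4 and KCNH7 are enriched, and KCNA6 and KCNH2 depleted.
KCNA2: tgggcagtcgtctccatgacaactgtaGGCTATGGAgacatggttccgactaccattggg
KCNA4: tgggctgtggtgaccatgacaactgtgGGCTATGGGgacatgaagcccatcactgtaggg
KCNA6: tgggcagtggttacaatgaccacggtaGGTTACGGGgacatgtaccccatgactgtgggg
KCNH7: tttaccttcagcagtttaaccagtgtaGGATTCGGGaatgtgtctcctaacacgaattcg
KCNH2: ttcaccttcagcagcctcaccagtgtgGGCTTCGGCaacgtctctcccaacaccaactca
These windows lie in single exons at chr1:110603625-110603684 (KCNA2), chr11:30011071-30011130 (KCNA4), chr12:4811284-4811343 (KCNA6), chr2:162435235-162435294 (KCNH7) and chr7:150951485-150951544 (KCNH2), the KCNA6 window on the plus strand and the others on the minus strand.

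KCNH7 and KCNH2 windows differed at 13 of 60 bases, 12 of them codon-end bases. G or C made up 43.3% of the KCNH7 window and 56.7% of the KCNH2 window, and 10 and 17 of the 20 codons ended in G or C. Over the whole coding sequence, G or C at codon ends (the last base of each codon) was 43.5% in KCNH7 and 86.8% in KCNH2. KCNA2 and KCNA6 windows differed at 18 bases, 13 of them codon-end bases, with codon-end G or C of 60.7% and 78.1% over the coding sequence. KCNA4 and KCNA6 windows differed at 12 bases, 11 of them codon-end bases, yet both had 56.7% G or C and 14 of 20 codons ending in G or C, while over the coding sequence the codon-end values were 59.9% and 78.1%. The windows of pairs with opposite calls thus did not all differ in composition.

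Silent subunits of the potassium channels (KCNF, KCNG, KCNS and KCNV), which form channels only with other pore subunits, were scarce in neurons: all 8 members lay between 1 and 5 CPM. KCNG4 and KCNV2 were called enriched, and both passed the 1 CPM filter only through P-bodies. KCNV2 had 4.40 and 3.38 CPM in P-bodies and 0.523 and 0.483 CPM in cytoplasm (70 against 11 counts). KCNG4 had 36 and 8 counts in P-bodies against 1 and 0 in cytoplasm, a ratio of count rates of 53.0 with an exact 95% interval of 9.03 to 2142 that covers counting error only. KCNF1, the silent subunit with the highest level per kb, had 0.695 and 7.29 CPM in P-bodies against 1.74 and 1.06 CPM, so its P-body replicates differed more than the fractions.

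Of the potassium channel accessory subunits, KCNAB2 (log2 change -1.25 ± 0.41, adjusted p = 0.038) and KCNIP2, a calcium-binding subunit of KCND channels (15.9 and 23.5 CPM against 32.2 and 29.1 CPM, -0.81 ± 0.23, adjusted p = 0.019), were depleted among 6 measured. Calcium- or sodium-activated channels were mostly level: of 9 members, KCNN1, a small-conductance calcium-activated pore, was depleted (-0.90 ± 0.25, adjusted p = 0.017), while the large-conductance pore KCNMA1 had 12 and 13.0 CPM against 10.8 and 10.6 CPM (0.06 ± 0.29, adjusted p = 0.9). Of 13 inward rectifiers, KCNJ15 was called enriched (62 against 11 counts) and passed the filter only through P-bodies; KCNJ6, a G-protein-activated rectifier and the highest of them per kb, had 86.4 and 56.8 CPM against 71.0 and 75.6 CPM (-0.20 ± 0.18, adjusted p = 0.44). Of 7 two-pore channels, which carry background potassium current, KCNK12 was enriched, with 19.6 and 20.1 CPM against 8.71 and 5.41 CPM (1.31 ± 0.32, adjusted p = 0.0067). KCNK10 had 58.1 and 78.0 CPM against 42.1 and 53.3 CPM (0.35 ± 0.17, adjusted p = 0.14), and KCNK2, a stretch-sensitive member, 3.59 and 3.91 CPM against 2.27 and 4.06 CPM (0.09 ± 0.55, adjusted p = 0.92). Exons of 18 of the 101 members overlap another counted gene on the opposite strand.

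The 29 genes under 1 CPM included several that were measured elsewhere. KCNQ5, an M-current pore, averaged 37.0 CPM in HEK293T and 0.674 CPM in neurons, and KCNG3 averaged 13.0 CPM in liver bud progenitors and 0.335 CPM in neurons. By edgeR 1 of the 29, KCNE4, was called enriched in neurons and 0 depleted; both its cytoplasm libraries were at 0 counts.

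Over the same 101 genes, which were chosen on their level in neurons, calls in the other cells were fewer. In liver bud progenitors 22 of the 101 genes were depleted and 8 enriched (21.8% and 7.92%), against 22.8% depleted and 30.6% enriched among all genes of at least 1 CPM in neurons. In HEK293T 12 were depleted and 7 enriched (11.9% and 6.93%), against 31.7% and 27.2%; with scaling by library size alone the HEK293T counts were 16 and 5. The channel genes were at low levels in HEK293T. Of the 83 channel genes of at least 1 CPM in liver bud progenitors, 24 (28.9%) were depleted there and 8 (9.64%) enriched. Of the 60 of at least 1 CPM in HEK293T, 14 (23.3%) were depleted there and 9 (15.0%) enriched. All genes were not counted under these 2 filters. Of the calcium channel genes, 5 of 8 alpha1 pores and 2 of 6 gamma subunits were depleted in liver bud progenitors, against 1 and 0 in HEK293T. At HEK293T levels such as 0.163 CPM (CACNA1A) or 0.112 CPM (CACNG7), the lack of a call says little. The gamma subunit CACNG5 was called enriched in HEK293T on 48 P-body against 14 cytoplasm counts. Of the 4 beta subunits 3 were depleted and 1 enriched in liver bud progenitors, and 2 were depleted and 2 enriched in HEK293T. CACNA2D1 was enriched in liver bud progenitors (0.95 ± 0.13, adjusted p = 1.3e-09). Depletion in all 3 cell types was called for 5 genes, among them CACNA1H, CACNA2D2, CACNB1 and CACNB3. CACNA2D2 had log2 changes of -1.27 ± 0.13 in neurons, -1.30 ± 0.11 in liver bud progenitors (adjusted p = 1.2e-16) and -1.25 ± 0.20 in HEK293T (adjusted p = 2.7e-07). CACNB4 was enriched in all 3, with 1.64 ± 0.22, 1.11 ± 0.30 (adjusted p = 0.0016) and 1.40 ± 0.15 (adjusted p = 2.2e-12). These comparisons use separate libraries and share no controls.

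A test of the difference itself, the interaction between fraction and cell type over the 8 neuron and liver libraries, called 14 channel genes: P-body enrichment was higher in neurons for 8 and lower for 6, or 7.92% and 5.94%, against 12.4% and 12.6% of all genes of at least 1 CPM. With scaling by library size alone, which moved the median of all genes tested by 0.36, the split was 16 and 4. SCN3B, depleted in neurons, differed by -1.41 ± 0.24 (adjusted p = 0.00062), with 6.18 and 5.84 CPM in liver P-bodies and 6.44 and 6.98 CPM in liver cytoplasm. SCN8A, at 61.0 and 59.98 CPM against 72.5 and 73.0 CPM in liver bud progenitors, differed by -0.68 ± 0.15 (adjusted p = 0.0053). SCN3B kept this call in all 14 other settings, while SCN8A and CACNA2D1 lost it with scaling by library size alone.

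In the other direction, KCNA2 had 2.1 and 3.99 CPM in liver P-bodies against 5.18 and 3.49 CPM in liver cytoplasm, and its enrichment was higher in neurons by 1.24 ± 0.32 (adjusted p = 0.014). Enrichment of KCNA2 was not particular to neurons. In HEK293T it was also called enriched, 2.22-fold, with 8.56 and 5.06 CPM in P-bodies against 2.68 and 4.02 CPM in cytoplasm. KCNC4, a pore subunit of voltage-gated potassium channels, was level in neurons (15.9 and 10.4 CPM against 11.2 and 14.7 CPM). It was depleted in liver bud progenitors (5.76 and 8.37 CPM against 31.7 and 21.1 CPM), a difference of 1.56 ± 0.42 (adjusted p = 0.018). SCN4A, the sodium channel pore of skeletal muscle, was depleted in liver bud progenitors (-1.11 ± 0.20) and differed by 2.22 ± 0.59 (adjusted p = 0.017), with neuron cytoplasm at 2.53 and 0.773 CPM. Each of these 3 genes lost the call without 1 or more of the 8 libraries, and all 3 lost it without liver cytoplasm replicate 1.

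**Figure D4:**
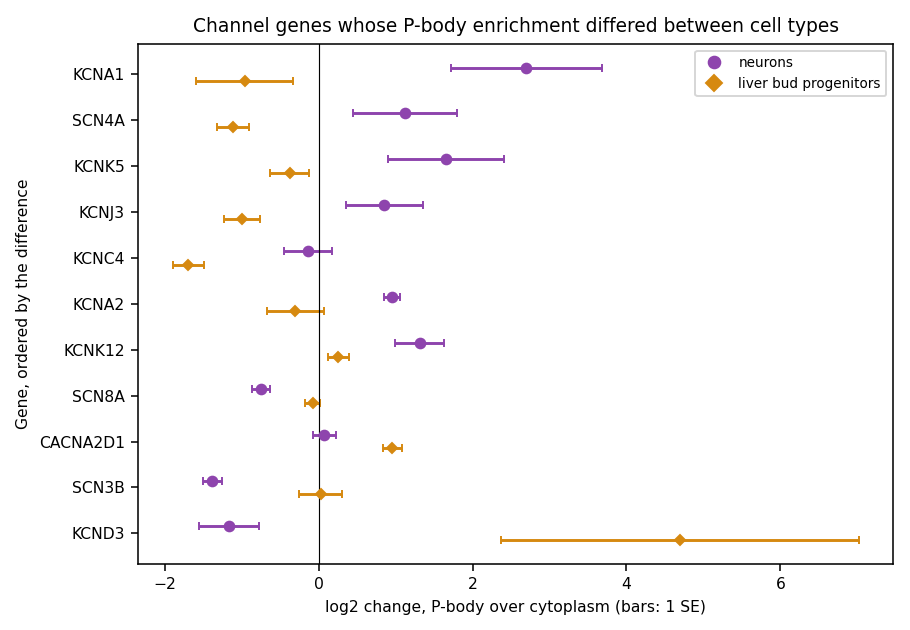
log2 change between P-bodies and cytoplasm in neurons (circles) and liver bud progenitors (diamonds) for 11 channel genes called in the interaction, with bars of 1 SE. SCN3B lies left of 0 in neurons and near 0 in liver bud progenitors; the liver value of KCND3 rests on 2 and 5 P-body counts against cytoplasm libraries at 0 and is no bound.

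Base composition, a property the rule did not use, is given next as a description with no test. The 30 genes depleted in neurons had a median codon-end G or C of 76.6%, the 9 enriched genes 65.3% and the 62 others 70.8%; 4 of the 9 passed the filter only through P-bodies. In the sequence after the stop codon (3′ UTR), the medians were 49.0%, 38.4% and 42.3%. Among all genes of at least 1 CPM with a MANE transcript, depleted genes had a median codon-end G or C of 70.4% and enriched genes 42.8%. Over the 59 members of at least 5 CPM, the log2 change fell with codon-end G or C (Spearman's rho -0.43) and with 3′ UTR G or C (rho -0.57), and over the 101 members the values were -0.15 and -0.29. Over all genes of at least 1 CPM, the level of the 101 members, rho was -0.49 for codon-end G or C (13086 genes) and -0.48 for 3′ UTR G or C (13051 genes). At 20 CPM or more, rho for codon-end G or C was -0.63 over 31 members and -0.67 over 5909 genes. These correlations run across genes that share the same 4 libraries and are given as description.

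Genes with codon-end G or C of 60% or more were common among channels. They made up 42 of the 59 members of at least 5 CPM, of which 25 (59.5%) were depleted and 2 (4.76%) enriched, next to 48.3% and 4.04% of all genes of this composition and level. Among all genes of at least 5 CPM with a MANE transcript, 4405 had 60% or more and 5316 had less. Of the 17 members below 60%, 5 (29.4%) were depleted and 3 (17.6%) enriched, next to 12.7% and 40.7% of all such genes. The depleted members of low G or C were CACNA1D, KCND2 and the sodium channel pores SCN1A (44.5%), SCN2A (46.3%) and SCN9A (43.6%), and the enriched members of high G or C were KCNA2 (60.7%) and KCNK12 (96.3%).

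**Figure D5:**
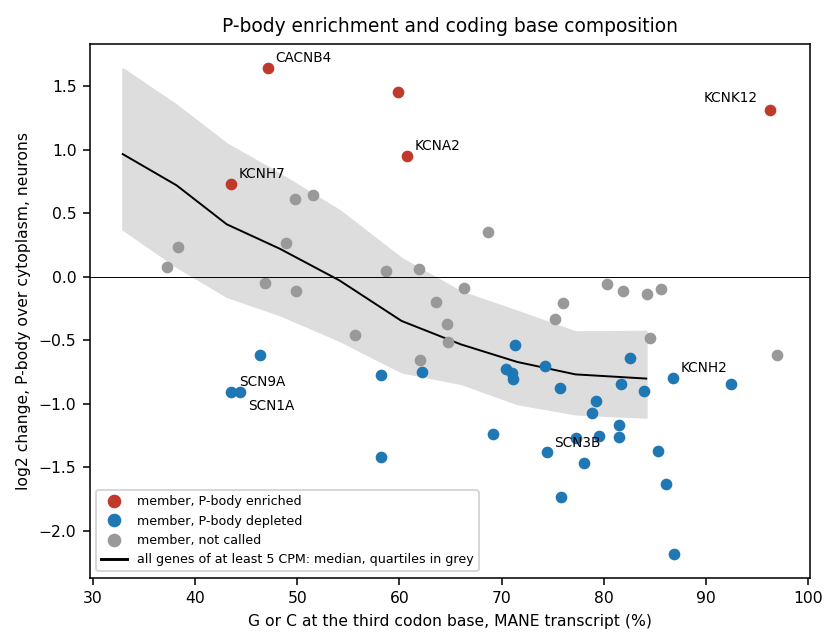
log2 change in neurons (vertical) against G or C at the last codon base (horizontal, %) for the 59 channel genes of at least 5 CPM, coloured by call. The black line joins medians of all genes of at least 5 CPM in 10 bins with quartiles in grey; KCNK12 lies above it at high G or C, and SCN1A and SCN9A lie below it at low G or C.

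Other genes of membrane excitability were followed from a list of 30 channel partners, of which 29 were in the table and 24 had at least 1 CPM in neurons. Of these 24, 12 were depleted in neurons and 0 enriched by edgeR, with a median log2 change of -0.46 (-0.30 with scaling by library size alone). The depleted share was 50.0%, against 21.0% of all genes of at least 1 CPM and 28.9% of those of at least 5 CPM. All 12 depleted partners had at least 5 CPM. They included NFASC, the adhesion protein that assembles the axon initial segment (-0.97 ± 0.08, adjusted p = 1.4e-06), the pacemaker channels HCN4 (-0.74 ± 0.15, adjusted p = 0.0021) and HCN3 (-1.99 ± 0.34, adjusted p = 0.00054), and the KCND partner DPP6 (-1.27 ± 0.24, adjusted p = 0.0014). ANK3, the scaffold that holds sodium channels at the initial segment, was not called in neurons (-0.16 ± 0.07, adjusted p = 0.098) and was enriched in liver bud progenitors (0.89 ± 0.06, adjusted p = 3.3e-22). In liver bud progenitors 7 of the 24 (29.2%) were depleted and 6 (25.0%) enriched, near the 22.8% and 30.6% of all genes. In HEK293T 9 (37.5%) were depleted and 2 (8.33%) enriched, against 31.7% and 27.2%.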

How the data were processed

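P-body and cytoplasm libraries of 3 human cell types were analysed, 2 per fraction. The deposited values are raw counts per gene symbol. Per the study's methods, the authors aligned Snap seq reads in nf-core RNA-seq 3.9 with counts from salmon 1.10.2, and Smart-seq reads with hisat 2.1.0 and featureCounts 1.6.2, on hg38 with the refGene annotation, and removed genes with under 10 reads over all samples. By their kits the HEK293T libraries are of the first kind and the neuron and liver libraries of the second; the count table itself does not name the route of a column. The deposited tables of the authors' own comparisons (fold changes and p-values) and the mouse counts were not used.

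Counts were tested with edgeR 4.0.16 (R 4.3.3; quasi-likelihood, two-sided, TMM scaling, Benjamini-Hochberg over all genes tested) within each cell type, leaving out genes at 0 in every library compared, and in the 8 neuron and liver libraries for the interaction and the cytoplasm; calls had an adjusted p under 0.05. Each test was checked on simulated counts. DESeq2 1.42.0, other scalings and filters, and fits without each library were alternatives. A count of 3 is the limit that 0 counts allow, 0.167 to 0.471 CPM per library, and intervals cover counting error only.

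Gene positions, lengths and base composition came from GENCODE 44 (hg38), where all 130 genes had a MANE transcript. Members and lists were chosen with earlier results of these data known. Genes named are, among members of at least 1 CPM, the 6 enriched and 6 depleted with the smallest p in neurons and separate fractions, the highest of each subfamily per kb, the 4 per direction with the smallest interaction p, those called in opposite directions, and a fixed list of well-known neuronal channel genes. Others named, among them CACNA1I, KCNA1, KCNA4, KCNA6, KCNA10, KCNAB2, CACNG2, CACNG7, CACNG8, KCNK5, KCNJ3, KCNJ15, KCNJ16, KCNE4, KCNG3 and KCNQ5, were chosen after their values were seen. Values of some channel genes are not reported here, while counts and medians over members include them.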

Additional observations from a re-analysis of the deposited data

Results flagged for a closer look

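The change from cytoplasm to P-bodies differed between neurons and liver bud progenitors for 14 channel genes, of which 11 are given here, by the interaction term of edgeR's quasi-likelihood test (adjusted p under 0.05, 2 libraries per group). In log2 units, neurons minus liver bud progenitors, it was higher in neurons for KCNA1 (3.66), SCN4A (2.22), KCNK5 (2.04), KCNJ3 (1.85), KCNC4 (1.56), KCNA2 (1.24) and KCNK12 (1.05). It was lower in neurons for KCND3 (-5.96), SCN3B (-1.41), CACNA2D1 (-0.89) and SCN8A (-0.68). KCNA1 and KCNK5 passed the filter of 1 CPM in neurons only through P-bodies, the fraction in which they are high, and lost the call in 8 and 6 of 14 other settings. The value of KCND3 is a fitted one against liver cytoplasm libraries at 0 counts and is no bound. KCNA1 had 3.94 and 1.58 CPM in neuron P-bodies against 0.174 and 0.580 CPM in neuron cytoplasm, and it and KCNK5 were not called by DESeq2.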

How the results depend on the processing

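No member called in neurons changed direction under any alternative, whereas some named members that were not called did, SCN3A and KCNF1 among them, and the median log2 change of the members in neurons went from -0.09 to 0.07 with scaling by library size alone. Of the 9 members enriched in neurons, the count became 15 in a single fit of all human libraries and 5 among members of at least 5 CPM or of at least 1 CPM in neuron cytoplasm. Leaving out 1 library moved it between 4 (without either cytoplasm library) and 19 (without P-body replicate 1; 15 without replicate 2), and moved the 30 depleted members between 16 and 35. DESeq2 called 22 members depleted, DESeq2's size factors in edgeR 24 and edgeR's default low-count filter 24. The 8 members with higher enrichment in neurons than in liver bud progenitors became 16 with scaling by library size alone, 13 with the low-count filter, 3 among members of at least 5 CPM and 5 among those of at least 1 CPM in neuron cytoplasm. Without 1 library they ranged from 1 (liver cytoplasm replicate 1) to 14 (neuron P-body replicate 2), with 13 without neuron P-body replicate 1, 2 without neuron cytoplasm replicate 1, liver P-body replicate 1 or liver cytoplasm replicate 2, and 5 without neuron cytoplasm replicate 2. The 6 with lower enrichment ranged from 5 to 17 (17 without neuron P-body replicate 2, 16 without replicate 1). The 17 members lower in neuron cytoplasm became 4 among members of at least 5 CPM. Except where fewer members or libraries were counted, the cause was not tested. The labels number replicates alike across groups, and same-numbered libraries did not deviate together (r 0.002 in neurons, -0.010 in liver bud progenitors, -0.016 in HEK293T). This cannot exclude pairing, because P-bodies were sorted from a cytoplasmic fraction that was itself sampled, and the main tests used no pairing. With a replicate block the 8 became 13 and the neuron counts stayed at 9 and 30. With 2 libraries per group, genes of 1 to 5 CPM rest on few counts, and differences there were often not detectable at this depth.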
